A study of Mus musculus with 28 samples.

Results

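Kidneys of female mice carrying the Q form of aquaporin-3 (Aqp3) were set against kidneys of male mice carrying the same form, and only genes on chromosomes 1 to 19 were described. Members were chosen by the genotype and sex in the sample labels, which gave 5 female Q and 5 male Q libraries, 10 of the 28 libraries of the series. Aqp3 lets water and glycerol through the basolateral side of principal cells in the collecting duct. In the study it was present as a mimetic of the acetylated lysine (Q), as a mimetic of the deacetylated lysine (R) or as wild type (WT). Both Q groups carried the mimetic, had received no treatment and were killed between 2 and 5 h of zeitgeber time; the labels used here name neither age nor strain. The kidneys had been freed of the capsule and snap frozen, and polyadenylated RNA was sequenced, with no separation of cortex from medulla named in the labels. Female WT (5 libraries), male WT (5), female R (3) and male R (5) kidneys, described alike in the labels, served to read the same difference in other libraries; female WT replicate 2 is labelled female but had almost no Xist. The labels number the replicates and do not state that each was a separate animal, so the p-values measure the spread between libraries, which may in part be technical. The Q change itself could not be checked, because counts per gene do not show a changed codon.

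The mouse kidney is among the organs whose RNA differs most between the sexes. The androgen receptor acts in proximal tubule cells, and textbook targets there include transporters, cytochrome P450 enzymes and ornithine decarboxylase, while other genes are higher in females or depend on prolactin and growth hormone. The proximal tubule takes up amino acids, phosphate and organic anions and conjugates drugs and hormones, and the segments after it adjust salt, acid and water.

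Total counts were 16159881 to 20178003 in the female Q libraries and 16360833 to 19951957 in the male Q libraries. Levels of Xist, the RNA of the inactive X chromosome, were 214 to 386 CPM (counts scaled by TMM and by library size) in female Q and 0.488 to 1.77 CPM in male Q, and the sum of 7 Y-linked genes was 8.36 to 28.6 CPM in female Q and 149 to 169 CPM in male Q. All 10 libraries therefore fell on the side of their label. All 10 also carried kidney markers: the proximal phosphate carrier Slc34a1 was at 3285 CPM or more and uromodulin (Umod) of the thick limb at 1881 CPM or more. A pair of libraries stood apart, female Q replicate 5 and male Q replicate 4. Mitochondrially encoded genes held 3.94% of the counts in female Q replicate 5 and 7.74% in male Q replicate 4, and between 9.98 and 11.6% in the remaining 8. The first principal component of the 10 libraries held 39% of the variance and parted the sexes, and the second held 23.5%, with male Q replicate 4 and female Q replicate 5 farthest to one end. Values without both libraries are given beside the results they moved most.

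Of 48071 autosomal genes in the table, 16622 passed the filter on low counts and were tested. The test called 3897 of them, or 23.4%, at a Benjamini-Hochberg adjusted p under 0.05 (edgeR quasi-likelihood test). With the 10 Q libraries alone in the fit it called 2155. At an unadjusted p under 0.05 there were 5705 (34.3%). In female Q kidneys 1872 genes (11.3%) were higher and 2025 (12.2%) were lower. These shares are the background for the counts of list members below. The median log2 fold change, female over male, was 0.63 over the higher genes, -0.55 over the lower ones and 0.02 over all autosomal genes tested. Scaling by DESeq2 size factors in place of TMM moved that last median by 0.02. At least 2-fold differences were estimated for 446 higher and 439 lower genes, and at least 16-fold differences for 31 higher and 40 lower genes. The 5 female Q libraries did not overlap the 5 male Q libraries for 2249 genes (13.5% of those tested), lying above them in 6.4% and below them in 7.13%. Of these 2249 genes 2131 were called. Called genes lay on every autosome, with shares between 20.3% of the tested genes on chromosome 7 and 26% on chromosome 13. Without male Q replicate 4 and female Q replicate 5 the test called 4126 genes, 3247 of them among the 3897. Of the 3897, 3880 kept their sign in every fit that left out 1 Q library or both of these.

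**Figure D1:**
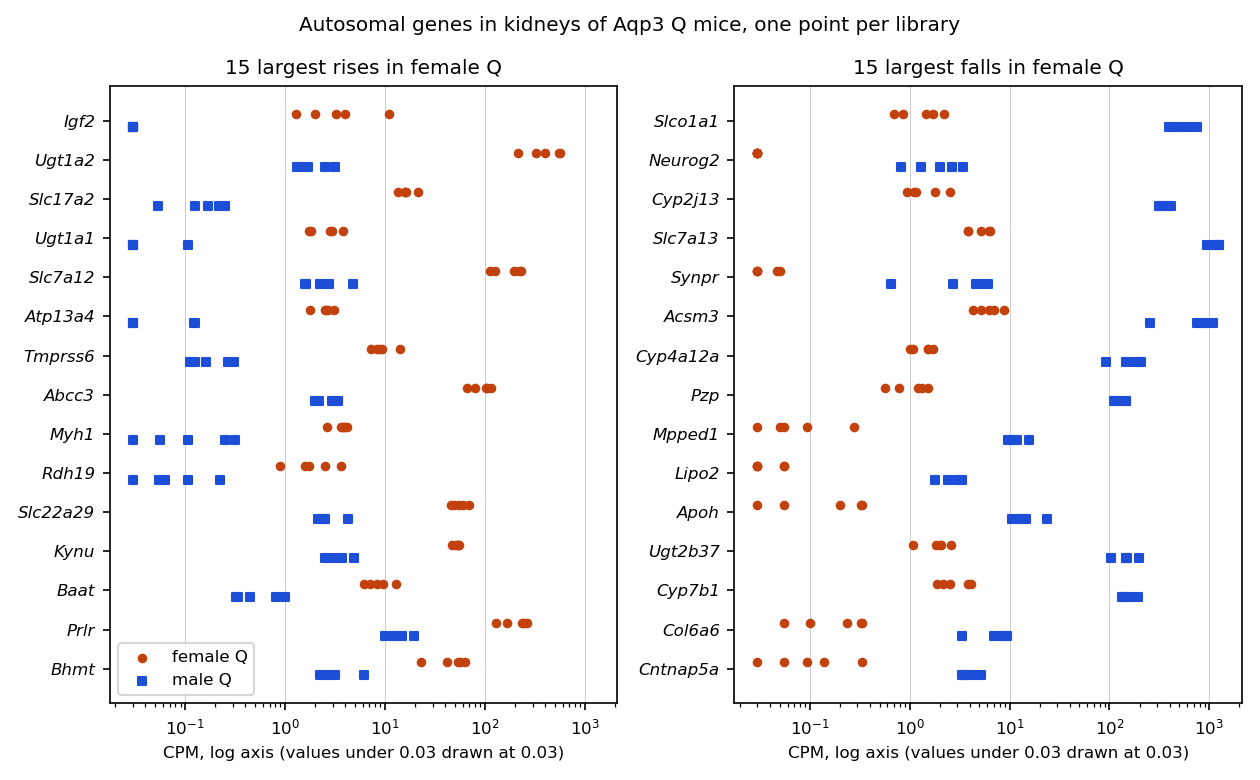
CPM on a log axis for the 15 autosomal genes with the largest rises (left) and the 15 with the largest falls (right) in female Q against male Q kidneys, one point per library, with orange circles for female Q and blue squares for male Q. The 2 groups do not overlap for any of these 30 genes, against 13.5% of all autosomal genes tested that do not overlap. The 30 were chosen by size of change in these same libraries, so this is no separate support. Igf2 is at 0 in all male Q libraries and Neurog2 at 0 in all female Q libraries.

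Among the largest falls were solute carriers of the proximal tubule. Slco1a1, an organic anion transporter of the apical membrane, had 0.701, 1.45, 2.22, 0.861 and 1.73 CPM in the female Q libraries, against 436, 607, 754, 398 and 506 CPM in the male Q libraries. Slc7a13, an aspartate and cystine transporter of the last proximal segment, had 3.83, 5.17, 6.32, 3.85 and 6.27 CPM in female Q, against 1082, 1247, 1236, 958 and 1210 CPM in male Q. In both genes, which were chosen for the size of their fall, every female library lay far below every male one. The log2 fold changes were -8.60 (SE 0.357, adjusted p = 2.22e-16) for Slco1a1 and -7.82 (SE 0.205, adjusted p = 3.08e-23) for Slc7a13, by edgeR's quasi-likelihood test.

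Enzymes of fatty acid, steroid and drug handling were also among the largest falls. Cyp2j13, a P450 of the arachidonic acid epoxygenase family, had 0.935, 1.17, 2.55, 1.11 and 1.79 CPM in female Q, against 337, 339, 416, 397 and 314 CPM in male Q (log2 fold change -7.89, SE 0.198, adjusted p = 2.43e-23). Acsm3, a medium-chain acyl-CoA synthetase, had 5.24, 4.34, 8.73, 6.94 and 6.27 CPM in female Q, against 755, 822, 1082, 255 and 904 CPM in male Q (log2 fold change -6.92, SE 0.435). The 255 CPM belonged to male Q replicate 4, and without both libraries that stand apart the estimate was -7.14. Cyp4a12a, an omega-hydroxylase of fatty acids, had 1.08, 1, 1.51, 1.72 and 1.51 CPM in female Q, against 147, 171, 204, 209 and 92.3 CPM in male Q (-6.91, SE 0.438). Cyp7b1, which hydroxylates oxysterols and steroids, had 1.87, 2.56, 3.87, 2.18 and 4.08 CPM in female Q, against 134, 147, 161, 195 and 138 CPM in male Q (-5.74, SE 0.253). Ugt2b37, a glucuronosyltransferase, differed by -6.28 (SE 0.295) on the log2 scale, with all female values at or below 2.57 CPM and all male values at or above 103 CPM. Each of these adjusted p-values was at most 7.72e-12.

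Plasma proteins and genes better known from other tissues made up the rest of the 15 largest falls. Pzp, a plasma protease inhibitor better known from liver, had 0.561, 0.778, 1.32, 1.22 and 1.51 CPM in female Q, against 119, 147, 147, 111 and 120 CPM in male Q (-6.90, SE 0.262). Apoh, a phospholipid-binding plasma protein, was between 0 and 0.336 CPM in female Q and between 10.5 and 23.5 CPM in male Q (-6.29, SE 0.409). Neurog2, a transcription factor of neuronal development, had no count in any female Q library and 179 counts over the male Q group (0.813 to 3.4 CPM). It was at least 58.7-fold lower in female Q, with the female group set at a floor of 3 counts. Synpr, a synaptic vesicle protein, had at most 0.0507 CPM in female Q and between 0.65 and 6.11 CPM in male Q. Lipo2 (-6.67), Mpped1 (-6.90), Col6a6 (-5.05) and Cntnap5a (-4.95) were also at or below 0.336 CPM in every female library, and fitted fold changes against such low levels depend on the prior count of the fit. Leaving out both libraries that stand apart moved Mpped1 to -7.75 and Cntnap5a to -5.68, and female Q replicate 5 held the highest female value of each (0.28 and 0.336 CPM).

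Among the largest rises in female Q were glucuronidation and efflux genes. Ugt1a2 had 560, 323, 397, 548 and 216 CPM in female Q, against 3.14, 2.53, 1.33, 1.43 and 1.68 CPM in male Q (7.66, SE 0.293, adjusted p = 8.82e-18). Ugt1a1, the bilirubin-conjugating enzyme, had between 1.73 and 3.8 CPM in female Q and was at 0 in 4 male libraries and at 0.108 CPM in male Q replicate 5 (6.48, SE 0.677, adjusted p = 1.1e-08). The Ugt1a genes share their last exons, where reads fall on several genes at once and are not counted by the tool's default, so these values rest on the unshared part. Abcc3, an efflux pump for glucuronides and bile acids, had 102, 79.9, 114, 66.6 and 106 CPM in female Q, against 3.37, 3.41, 2.97, 1.99 and 2.17 CPM in male Q (5.07, SE 0.297). Baat, which conjugates bile acids to amino acids, was between 6.18 and 12.9 CPM in female Q and between 0.325 and 1.01 CPM in male Q (3.89, SE 0.301).

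Slc7a12, a neutral amino acid transporter, showed the opposite sign to its relative Slc7a13: it had 220, 113, 232, 194 and 127 CPM in female Q, against 2.75, 4.74, 2.23, 1.62 and 1.57 CPM in male Q (6.11, SE 0.638, adjusted p = 1.11e-07). Prlr, the prolactin receptor, had 235, 129, 264, 246 and 167 CPM in female Q, against 12.4, 19.7, 10.1, 14.7 and 14.3 CPM in male Q (3.87, SE 0.453, adjusted p = 6.03e-07). Every female library lay above every male one in both genes, which were chosen for the size of their rise. Slc17a2, a sodium-phosphate cotransporter family member, was between 13.4 and 21.6 CPM in female Q and at most 0.249 CPM in male Q (6.62, SE 0.319). Kynu, an enzyme of tryptophan breakdown, had 55.6, 51.9, 53.3, 53.7 and 46.7 CPM in female Q, against 2.75, 3.73, 3.29, 2.49 and 4.88 CPM in male Q (3.92, SE 0.251). Bhmt, which remethylates homocysteine with betaine, was between 23 and 62.6 CPM in female Q and between 2.24 and 6.18 CPM in male Q (log2 fold change 3.80, SE 0.317).

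Igf2, an imprinted fetal growth factor, had 3.23, 1.28, 3.96, 10.9 and 2.01 CPM in female Q and no count in any male Q library. With 428 counts over the female group and the male group set at the floor of 3, it was at least 145-fold higher in female Q. The highest value, in female Q replicate 4, lay far from the other 4. Tmprss6, a membrane protease that cleaves hemojuvelin in liver, was between 7.31 and 14.3 CPM in female Q and at most 0.311 CPM in male Q (5.57, SE 0.453). Atp13a4, a P5-type ATPase (5.58), Myh1, a fast skeletal muscle myosin (4.64), and Rdh19, a retinol dehydrogenase family member (4.41), were low, at or below 4.2 CPM in every female and 0.316 CPM in every male library. Fabp1, the liver fatty acid binding protein, moved with the pair that stands apart: it had 4.07, 5.28, 2.97, 4.46 and 2.69 CPM in female Q, against 0.449, 0, 0.159, 0.995 and 0.434 CPM in male Q, with 3.25 (SE 0.432) in all libraries and 3.94 without that pair.

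A list of 18 genes known to respond to androgens in mouse kidney was called lower in female Q throughout, 18 of 18, with a median log2 fold change of -3.28 against 0.02 over all autosomal genes. The list was compiled with that direction known, so its count is not independent evidence. Besides the genes above it held Cyp2e1, the ethanol-oxidising P450, with 70.3, 28.3, 70.0, 93.0 and 70.9 CPM in female Q, against 1434, 1311, 1459, 1376 and 1465 CPM in male Q (-4.40, SE 0.193, adjusted p = 2.79e-17). Cyp4b1 had 139, 178, 189, 189 and 169 CPM in female Q, against 3561, 3705, 3739, 2916 and 3672 CPM in male Q (-4.35, SE 0.176). Timd2, a receptor for H-ferritin, was between 4.63 and 8.62 CPM in female Q and between 69.9 and 122 CPM in male Q (-3.83, SE 0.214). Kap, the kidney androgen-regulated protein, was named after its values were seen, because male Q replicate 4 stood far out: it had 6530, 7569, 7586, 4703 and 12389 CPM in female Q, against 18085, 18301, 21929, 49015 and 19541 CPM in male Q. Its log2 fold change was -1.71 (SE 0.251, adjusted p = 6.28e-06) in all libraries and -1.56 without the pair that stands apart. In bulk tissue, fewer cells of a type and less RNA per cell cannot be told apart.

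Enzymes and receptors of steroid hormones moved in both directions, with 6 of 24 tested genes higher, 13 lower and a median of -0.32. Hsd17b11, a 17-beta-hydroxysteroid dehydrogenase, was between 78.7 and 126 CPM in female Q and between 474 and 626 CPM in male Q (-2.31, SE 0.174, adjusted p = 1.18e-11). Both 5-alpha-reductases, which make dihydrotestosterone, fell: Srd5a2 was between 2.07 and 8.51 CPM in female Q and between 14.2 and 22 CPM in male Q (-1.94, SE 0.249), and Srd5a1 differed by -1.14. Hsd3b2 (-1.74) and Hsd3b3 (-1.32), which convert delta-5 to delta-4 steroids, were lower too. Hsd3b4 was estimated higher (1.22, SE 0.376, adjusted p = 0.0174), but the call did not hold in every fit that left out 1 library (largest adjusted p 0.0674). Without the pair that stands apart its adjusted p was 0.000473. The hydroxysteroid dehydrogenases of this group are near-copies of one another, so reads may be split between them.

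**Figure D2:**
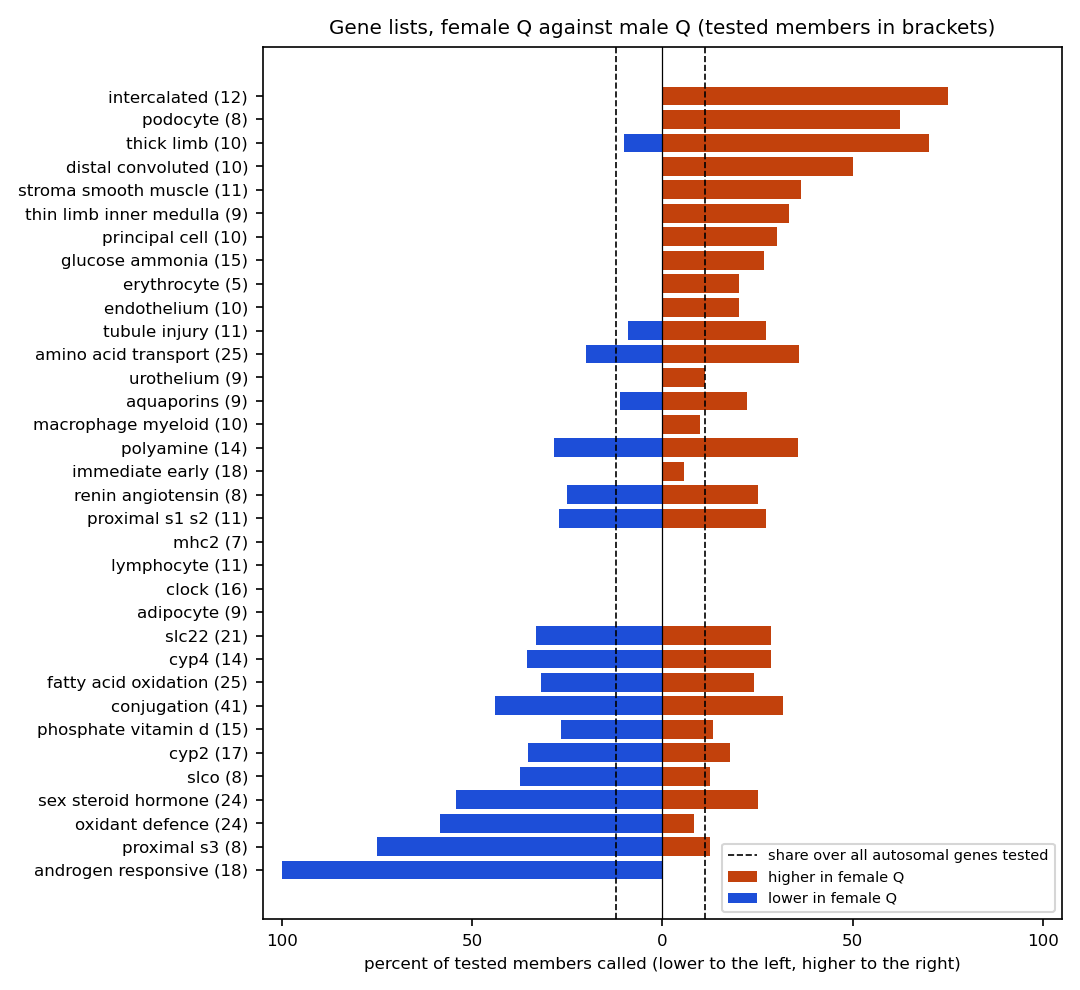
Percent of the tested members of each gene list that were called lower (blue, to the left) or higher (orange, to the right) in female Q against male Q kidneys, with the number of tested members in brackets and dashed lines at 12.2% and 11.3%, the shares over all autosomal genes tested. The androgen list is lower in 18 of 18 members and the intercalated cell list higher in 9 of 12.

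Gene families of P450 enzymes split by member. Of 17 tested Cyp2 genes 3 were higher and 6 lower, with a median of -0.11 and of -0.43 without the pair that stands apart, and of 14 tested Cyp4 genes 4 were higher and 5 lower (median -0.16, and -0.09 without the pair). Within the Cyp2d cluster on chromosome 15, Cyp2d9 had 16.5, 13.4, 13.4, 18.1 and 14.3 CPM in female Q, against 152, 128, 111, 156 and 104 CPM in male Q (-3.10, SE 0.291). Cyp2d26 of the same cluster had 342, 315, 344, 312 and 319 CPM in female Q, against 136, 132, 121, 179 and 138 CPM in male Q (1.21, SE 0.104). Within the Cyp4a cluster on chromosome 4, Cyp4a12a, Cyp4a12b (-2.73) and Cyp4a32 (-2.59) were lower, and Cyp4a14 was higher, with 543, 326, 636, 469 and 544 CPM in female Q, against 164, 31.3, 28.1, 27.8 and 37.6 CPM in male Q (3.12, SE 0.562, adjusted p = 0.000209). The 164 CPM of Cyp4a14 belonged to male Q replicate 1, which also had the highest male level of Cyp4a12b, 20.8 CPM. Members of these clusters are close copies, and reads that map to several places had been left out of the counts, so single values are uncertain.

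The Slc22 transporters of organic anions and cations split within a cluster on chromosome 19. Of 21 tested members 6 were higher and 7 lower in female Q (median 0.12). Slc22a28 and Slc22a30 were lower and their neighbours Slc22a29 and Slc22a27 higher. The RefSeq promoter windows of 3 of them are shown (GRCm38.p6, from 250 bases before to 50 after the annotated start). They were picked with the directions known: Slc22a28 and Slc22a30 have nearly identical windows and were both lower. Slc22a29 and Slc22a27 were both higher, and their windows shared 172 of 300 aligned bases. Whether the windows bear on the directions was not tested. Capitals in Slc22a30 (12 bases) and Slc22a29 (75 bases) mark bases that a global alignment did not pair with an identical base of Slc22a28.
Slc22a28, chr19:8131933-8132232, minus strand: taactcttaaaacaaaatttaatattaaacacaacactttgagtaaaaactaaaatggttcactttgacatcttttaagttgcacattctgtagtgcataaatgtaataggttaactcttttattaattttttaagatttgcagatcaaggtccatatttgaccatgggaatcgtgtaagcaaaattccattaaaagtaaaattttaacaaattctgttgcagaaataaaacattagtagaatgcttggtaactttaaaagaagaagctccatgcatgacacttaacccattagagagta
Slc22a30, chr19:8405056-8405355, minus strand: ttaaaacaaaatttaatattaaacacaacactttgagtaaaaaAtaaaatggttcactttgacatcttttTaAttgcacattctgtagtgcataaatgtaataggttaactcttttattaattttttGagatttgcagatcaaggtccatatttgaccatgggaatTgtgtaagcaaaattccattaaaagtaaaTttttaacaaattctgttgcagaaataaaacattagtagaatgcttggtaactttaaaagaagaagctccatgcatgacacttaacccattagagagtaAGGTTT
Slc22a29, chr19:8218851-8219150, minus strand: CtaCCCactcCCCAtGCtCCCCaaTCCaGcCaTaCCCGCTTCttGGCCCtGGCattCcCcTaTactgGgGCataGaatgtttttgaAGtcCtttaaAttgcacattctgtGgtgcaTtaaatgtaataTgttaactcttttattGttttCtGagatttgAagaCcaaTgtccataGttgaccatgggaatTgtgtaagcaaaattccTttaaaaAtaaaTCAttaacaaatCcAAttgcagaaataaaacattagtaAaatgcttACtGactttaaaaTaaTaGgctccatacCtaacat

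Identical aligned bases numbered 288 of 300 between Slc22a28 and Slc22a30, 225 between Slc22a28 and Slc22a29 and 224 between Slc22a30 and Slc22a29. For scale, the window of Slc22a28 and that of Ugt2b37, a gene of another family, shared 182 under the same alignment. Slc22a28 had 19.6, 26, 28.6, 17.9 and 31.4 CPM in female Q, against 202, 216, 266, 218 and 204 CPM in male Q (-3.16, SE 0.165, adjusted p = 1.88e-15). Slc22a30 had 12.1, 10.7, 13.1, 9.12 and 20 CPM in female Q, against 239, 271, 315, 229 and 235 CPM in male Q (-4.31, SE 0.272, adjusted p = 1.72e-12). Slc22a29 had 45.6, 69.2, 54.9, 60.5 and 49.3 CPM in female Q, against 2.13, 2.53, 2.34, 2.43 and 4.23 CPM in male Q (4.35, SE 0.194, adjusted p = 4.21e-17). The order of the sexes was thus opposite in neighbouring relatives, in all 10 libraries. Since only uniquely mapped reads were counted, the levels of such close copies are uncertain. Slc22a27, named after its values were seen, was low, at 2.2 to 3.84 CPM in female Q and 0 to 0.379 CPM in male Q (3.69, SE 0.426), and its window shared 169 to 175 aligned bases with the other 3, which in turn shared 173 to 182 with that of Ugt2b37.

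The half-site of the androgen receptor's DNA element, AGAACA on one strand or TGTTCT, its reverse complement, was searched in the same windows by exact match. It was in 19% of 32851 windows of all genes and in 15.4% of 11809 windows of autosomal genes tested. Windows of called genes held it in 16.6% of 1356 cases for genes higher in female Q and in 16.4% of 1542 for genes lower in female Q. These shares were not tested and describe letters in these windows only.

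Better known organic anion carriers of the family also differed. Slc22a6 (OAT1), the basolateral uptake carrier for organic anions, had 488, 233, 412, 339 and 280 CPM in female Q, against 1122, 1224, 1207, 1059 and 1237 CPM in male Q (-1.74, SE 0.16, adjusted p = 7.52e-10). Slc22a12 (URAT1), which takes up urate, had 774, 661, 672, 550 and 721 CPM in female Q, against 1527, 1661, 1663, 2169 and 1593 CPM in male Q (-1.35, SE 0.111). Slc22a8 (OAT3), another basolateral carrier, was named after its values were seen and lay on the other side (0.37, SE 0.133, adjusted p = 0.0404), with overlapping groups and an adjusted p of up to 0.118 when 1 library was left out. Of 8 tested Slco carriers 3 were lower and 1 higher, the lower ones being Slco1a1, Slco3a1 (-2.30, SE 0.108) and Slco4c1 (-1.74, SE 0.266).

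**Figure D3:**
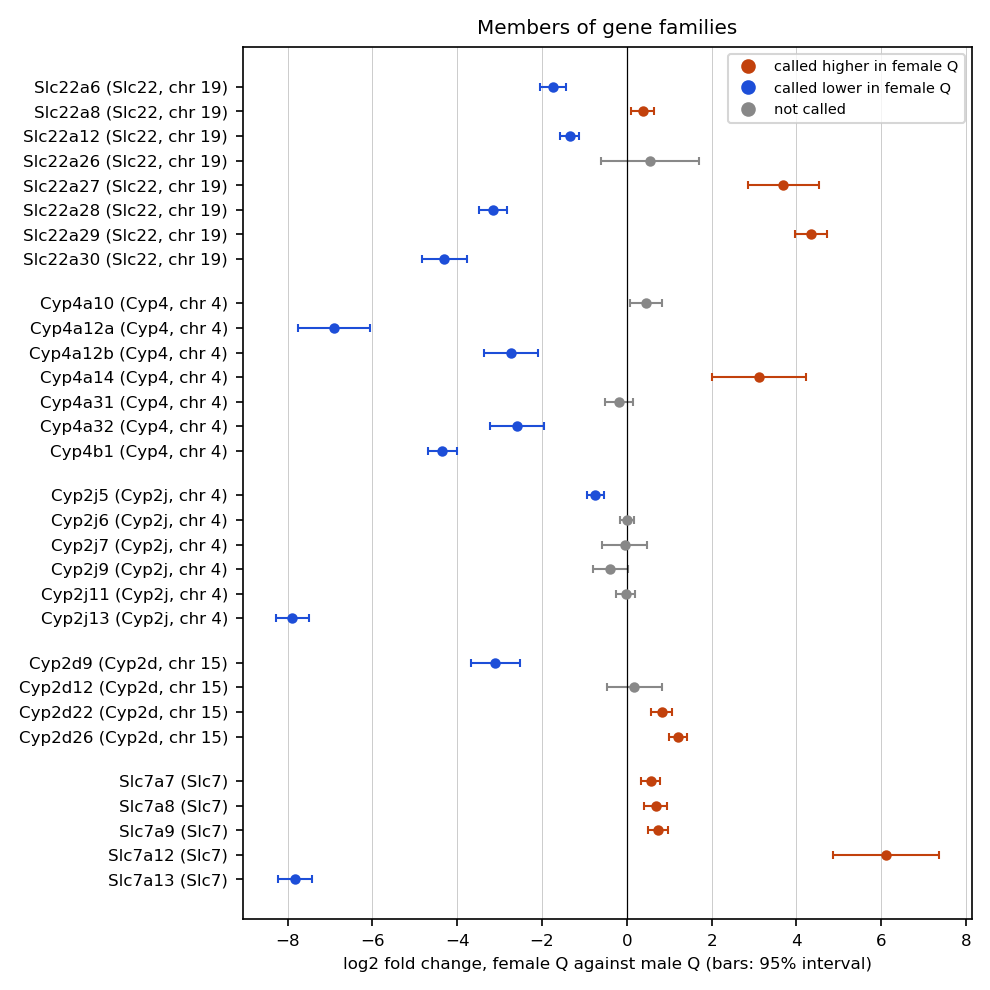
Log2 fold changes of members of 5 gene families in female Q against male Q kidneys, with 95% intervals, in orange where called higher, blue where called lower and grey where not called. Slc22a28 (-3.16) and Slc22a30 (-4.31) lie left of 0 and Slc22a27 (3.69) and Slc22a29 (4.35) right of it, and Slc7a13 (-7.82) and Slc7a12 (6.11) are the widest pair.

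Amino acid transporters were more often higher, 9 of 25 tested against 5 lower, with a median of 0.34. Apart from Slc7a12 the rises were small: Slc7a9, the light chain of the cystine carrier, had 158, 143, 154, 168 and 148 CPM in female Q, against 85.2, 98.6, 83.5, 78.9 and 115 CPM in male Q (0.74, SE 0.118, adjusted p = 1.63e-05). Slc6a18, an apical glycine carrier, was between 726 and 975 CPM in female Q and between 535 and 579 CPM in male Q (0.64, SE 0.104), and Slc1a5, a glutamine carrier, differed by 0.54 (SE 0.0816). Slc1a4, a carrier of small neutral amino acids, was lower (-1.01, SE 0.164).

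Conjugating enzymes and their efflux pumps split 13 higher to 18 lower among 41 tested, with a median of -0.28. Without the pair that stands apart 16 were higher and 20 lower (median -0.31). Against the rises of Ugt1a2 and Abcc3 stood Ugt8a, a galactosyltransferase of galactolipid synthesis, at 5.34 to 6.66 CPM in female Q and 47.4 to 80.5 CPM in male Q (-3.58, SE 0.163). Ugt2b38 had 94.8, 76.9, 73.7, 46.5 and 95.6 CPM in female Q, against 735, 908, 1143, 995 and 1101 CPM in male Q (-3.66, SE 0.202). Its promoter window shared 274 of 300 aligned bases with that of Ugt2b37, which was also lower. A link between the windows and the direction was not tested. Nat8, which acetylates cysteine conjugates in the last step to mercapturic acids, had 50.2, 36.4, 62.2, 47.9 and 43.0 CPM in female Q, against 231, 253, 273, 527 and 237 CPM in male Q (-2.67, SE 0.194). Male Q replicate 4 held that highest value, and without the pair that stands apart the estimate was -2.34.

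Genes of glutathione and oxidant defence were mostly lower, 14 of 24 tested against 2 higher, with a median of -0.48. Ggt1, which splits extracellular glutathione, had 809, 726, 772, 750 and 754 CPM in female Q, against 1438, 1510, 1557, 2468 and 1517 CPM in male Q (-1.16, SE 0.122, adjusted p = 1.4e-08). Glutathione synthetase Gss (-0.86), glutathione reductase Gsr (-0.48), the modifier subunit Gclm (-0.48), catalase Cat (-0.55) and the quinone reductase Nqo1 (-0.59) were lower too. Male Q replicate 4 had the highest level of Ggt1 and of Gss, and without the pair that stands apart the median of the list was -0.38, with 15 lower and 2 higher.

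Fatty acid oxidation genes went both ways, 6 of 25 tested higher and 8 lower, median -0.12. Without the pair that stands apart 6 were higher and 10 lower, with a median of -0.02. Acsm2, another medium-chain acyl-CoA synthetase, had 1334, 1310, 1296, 1127 and 1515 CPM in female Q, against 4904, 5542, 5830, 5274 and 5426 CPM in male Q (-2.04, SE 0.108, adjusted p = 2.28e-15). Acsl1, which activates long-chain fatty acids, was higher, with 523, 360, 558, 435 and 378 CPM in female Q, against 222, 207, 208, 113 and 216 CPM in male Q (1.22, SE 0.149, adjusted p = 1.9e-07).

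Polyamine and ornithine genes held opposite changes at successive steps. Odc1, ornithine decarboxylase, which turns ornithine into putrescine, had 474, 598, 408, 396 and 644 CPM in female Q, against 2131, 2505, 3272, 2982 and 1998 CPM in male Q (-2.36, SE 0.223, adjusted p = 2.8e-09). Arg2, the mitochondrial arginase that makes ornithine, had 21, 18.2, 29.2, 21.7 and 14 CPM in female Q, against 2.81, 2.65, 3.82, 2.86 and 3.47 CPM in male Q (2.73, SE 0.176, adjusted p = 3.14e-13). Oat, which degrades ornithine, had 406, 335, 411, 362 and 540 CPM in female Q, against 134, 141, 123, 125 and 144 CPM in male Q (1.62, SE 0.106). Of the 14 tested members of the list 5 were higher and 4 lower, against 4 higher and 3 lower without the pair that stands apart.

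Among 15 phosphate and vitamin D genes 2 were higher and 4 lower, against 11.3% and 12.2% of all autosomal genes tested. Slc34a1, the main apical phosphate cotransporter, had 4883, 4238, 4244, 4575 and 3285 CPM in female Q, against 7039, 6584, 6413, 5978 and 6564 CPM in male Q (-0.62, SE 0.101, adjusted p = 2.35e-05). Pth1r, the parathyroid hormone receptor (-0.54), and its scaffold Slc9a3r1 (-0.50) were lower, whereas the calls of Vdr, Slc34a3 and Lrp2 did not hold in every fit that left out 1 library (largest adjusted p 0.119, 0.132 and 0.161). In the renin-angiotensin list 2 of 8 were higher and 2 lower. Ace, angiotensin-converting enzyme, had 216, 197, 199, 228 and 139 CPM in female Q, against 313, 313, 313, 314 and 298 CPM in male Q (-0.66, SE 0.104, adjusted p = 1.32e-05). Mas1, the angiotensin 1-7 receptor, was at most 0.559 CPM in female Q and at least 1.68 CPM in male Q (-2.34, SE 0.45), and Mme, neprilysin, was higher (0.89, SE 0.152). Ren1, renin, had 73.4, 147, 69.3, 53.3 and 83.9 CPM in female Q and 60.4, 45.3, 56.3, 77.8 and 42.7 CPM in male Q, with overlapping groups and no call (0.60, SE 0.257, adjusted p = 0.0986).

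Of 9 tested aquaporins 2 were called higher and 1 lower, near the 11.3% and 12.2% of all autosomal genes tested. The channel under study, Aqp3, had 108, 122, 101, 124 and 101 CPM in female Q and 115, 110, 115, 98.0 and 117 CPM in male Q, and the groups overlapped (log2 fold change 0.00, 95% interval -0.20 to 0.20). Aqp4, the other basolateral water channel of principal cells, had 65.7, 47.9, 77.0, 56.8 and 63.9 CPM in female Q, against 28.6, 25.1, 22.1, 11.3 and 20.4 CPM in male Q (1.53, SE 0.273, adjusted p = 0.000133). Aqp11, a channel of the endoplasmic reticulum in proximal tubules, had 48.2, 65.1, 58.4, 59.1 and 53.6 CPM in female Q, against 74.6, 69.9, 71.5, 81.7 and 69.4 CPM in male Q (-0.37, SE 0.0934, adjusted p = 0.00394). Aqp6, of intercalated cell vesicles, was higher (0.68, SE 0.205, adjusted p = 0.0168), but its adjusted p was 0.0748 without female Q replicate 2, the library with 124 CPM. No call was made for Aqp1 (interval -0.19 to 0.19), Aqp2 (-0.63 to 0.33), Aqp5 (-1.04 to 1.33), Aqp7 (-0.16 to 0.27) and Aqp8 (-1.55 to -0.02, adjusted p = 0.151), and the signs of Aqp1, Aqp2, Aqp3 and Aqp5 changed with the processing.

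Marker lists of the nephron after the proximal tubule, and of podocytes, lay higher in female Q by a modest amount. Over the thick limb, distal convoluted tubule, principal cell, intercalated cell and podocyte lists together, 29 of 50 tested genes were higher and 1 lower, with a median of 0.39 against 0.02 over all autosomal genes, and of 0.41 without the pair that stands apart. Intercalated cells, which secrete acid or base, had 9 of 12 markers higher, and 11 of 12 without the pair. Slc26a4, pendrin, had 76.2, 90.1, 89.7, 78.4 and 78.3 CPM in female Q, against 47.4, 55.4, 55.2, 56.1 and 62.8 CPM in male Q (0.58, SE 0.0891, adjusted p = 1.13e-05), and the proton pump subunit Atp6v1b1 differed by 0.48 (SE 0.0919). Thick limb markers were higher in 7 of 10 and lower in 1, Cldn10, whose call was lost without that pair. Slc12a1, the sodium-potassium-chloride cotransporter, had 1387, 1298, 1196, 1601 and 1314 CPM in female Q, against 1011, 984, 986, 468 and 930 CPM in male Q (0.63, SE 0.14), or 0.48 without the pair. The potassium channel Kcnj1 differed by 0.49 (SE 0.1).

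In the distal convoluted tubule 5 of 10 markers were higher, and 6 without the pair that stands apart. The sodium-calcium exchanger Slc8a1 was at 0.47 (SE 0.111, adjusted p = 0.00206), while the calls of Slc12a3, Klhl3 and Trpv5 did not hold in every fit that left out 1 library (largest adjusted p 0.107, 0.153 and 0.127). Principal cell markers were higher in 3 of 10 and in 7 of 10 without the pair that stands apart. Podocyte markers were higher in 5 of 8, and in 6 without the pair, with the calls of Podxl and Wt1 lost when 1 library was left out (largest adjusted p 0.123 and 0.0714). By library, the median level of the intercalated markers relative to the male Q mean was 0.24 to 0.71 in female Q and -0.29 to 0.14 in male Q on the log2 scale. That of the thick limb markers was 0.19 to 0.53 in female Q and -0.10 to 0.09 in male Q. The sexes overlapped in the other 3 lists: distal convoluted markers lay at 0.00 to 0.56 in female Q and -0.20 to 0.18 in male Q, principal cell markers at -0.10 to 0.49 in female Q and -0.04 to 0.08 in male Q, and podocyte markers at 0.13 to 0.57 in female Q and -0.57 to 0.24 in male Q.

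Markers of the last proximal segment went the other way, with 6 of 8 lower and 1 higher (median -0.44). Slc7a13 and Cyp7b1 of this list are among the largest falls above. All marker lists were written with earlier results of these data known, so their counts are not independent evidence. The lower ones included Slc7a13, Cyp7b1 and Atp11a, a phospholipid flippase with 445, 225, 436, 367 and 293 CPM in female Q, against 1470, 1574, 1638, 826 and 1602 CPM in male Q (-2.01, SE 0.206). Slc5a1, a sodium-glucose cotransporter of the same segment, was higher (0.63, SE 0.11, adjusted p = 7.03e-05). Markers of the first proximal segments had 3 of 11 higher and 3 lower, with a median of 0.37, and thin limb and inner medulla markers 3 of 9 higher and 0 lower, with a median of 0.38. The part of tissue sampling in these list values was not tested.

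**Figure D4:**
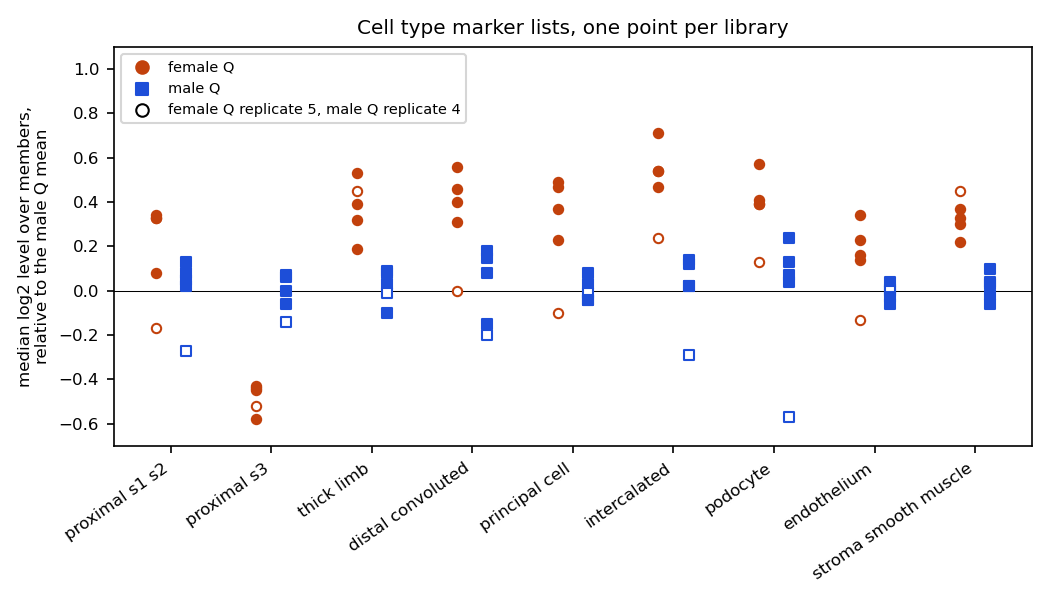
Median log2 level of each cell type marker list relative to its male Q mean, one point per library, with orange circles for female Q, blue squares for male Q and open symbols for female Q replicate 5 and male Q replicate 4. Intercalated markers lie at 0.24 to 0.71 in female Q and at -0.29 to 0.14 in male Q, last proximal segment markers at -0.58 to -0.43 in female Q and at -0.14 to 0.07 in male Q.

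Of markers of other cell types, 4 of 11 stromal genes were higher (median 0.33, and 7 of 11 without the pair that stands apart), against 11.3% of all autosomal genes tested. Macrophage genes were higher in 1 of 10, near that share, and endothelial genes in 2 of 10 (1 and 4 without the pair). By edgeR's test 0 of 11 lymphocyte genes (1 at an unadjusted p under 0.05), 0 of 7 MHC class II genes (0), 0 of 9 adipocyte genes (1) and 0 of 16 clock genes (2) passed, and DESeq2's Wald test called 0 in each. Voom with quality weights called 1 MHC class II and 1 clock gene. Adipocyte markers had a median of 1.78 with no call, and their summed level ranged from 83.3 to 220 CPM in female Q and from 52.2 to 109 CPM in male Q. Adipoq, adiponectin, had 2.57, 12.8, 3.63, 4.61 and 0.112 CPM in female Q and 0.449, 0.758, 3.82, 1.43 and 0.325 CPM in male Q (1.78, SE 1.03, adjusted p = 0.234), so the groups overlapped. Of 11 adrenal gland markers 1 passed the filter on low counts.

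The same difference was then read in the WT and R libraries, which share no library with the Q comparison. Between female and male WT kidneys 2807 autosomal genes were called (16.9%), 8.47% higher and 8.42% lower in females. Between female and male R kidneys 2368 were called (14.2%), 7% higher and 7.25% lower. Of the Q calls 2204 were also called in WT, all with the same sign, which is 56.6% of the Q list and 78.5% of the WT list. Without female WT replicate 2 the WT list held 2276 genes (13.7%), and 1878 of the Q calls were in it, all with the same sign (48.2% of the Q list and 82.5% of that WT list). With R the Q calls shared 1943 genes, 49.8% of the Q list and 82% of the R list, and 1942 of them had the same sign. The exception was Cd27, a costimulatory receptor of lymphocytes, with a log2 fold change of 1.05 in Q (adjusted p = 0.0417) and -1.48 in R (adjusted p = 0.0287) at levels of at most 1.23 CPM in the Q libraries. Called in the same direction in all 3 genotypes were 1571 genes, 679 higher and 892 lower in females, or 40.3% of the Q list, and 1444 genes without female WT replicate 2. Without male Q replicate 4 and female Q replicate 5, 2241 genes were called in the same direction in all 3 genotypes.

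No autosomal gene passed the test of the difference between genotypes itself. The sex difference in Q minus that in WT called 0 of 16622 genes (0%), while 514 (3.09%) had an unadjusted p under 0.05. Likewise the sex difference in Q minus that in R called 0 (0%), with 530 (3.19%) at that unadjusted p. DESeq2's Wald test and voom with quality weights called 0 in both as well. The longer list in Q is therefore not shown to mark genes particular to Q. The smallest p-values, named after they were seen, belonged to Rad51c, a recombination protein, in Q minus WT and to Ace in Q minus R. Rad51c was between 1.92 and 3.39 CPM in female Q and between 4.77 and 6.84 CPM in male Q. Its log2 fold change was -1.31 in Q and -0.02 in WT, a difference of -1.29 (SE 0.295, unadjusted p = 0.000134, adjusted p = 0.999, edgeR). That of Ace was -0.66 in Q, -0.28 in WT and 0.05 in R, a Q minus R difference of -0.71 (SE 0.157, unadjusted p = 8.62e-05, adjusted p = 1). Kynu differed by 3.92 in Q and by 2.68 in WT, 1.24 apart (SE 0.326, adjusted p = 0.999).

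Sizes were compared over the 2368 autosomal genes called in R, whose libraries neither Q nor WT uses. The median absolute log2 fold change there was 0.63 in Q and 0.53 in WT, and 70% of the genes had the larger estimate in Q. Across these genes the fold changes in Q and WT correlated with a Pearson r of 0.964 and a Spearman rho of 0.969. Genes are not independent replicates, and the fits share one dispersion estimate, so these values are a description. Without the pair that stands apart the medians were 0.59 in Q and 0.52 in WT, with 67.5% larger in Q. Without female WT replicate 2 they were 0.63 in Q and 0.51 in WT.

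**Figure D5:**
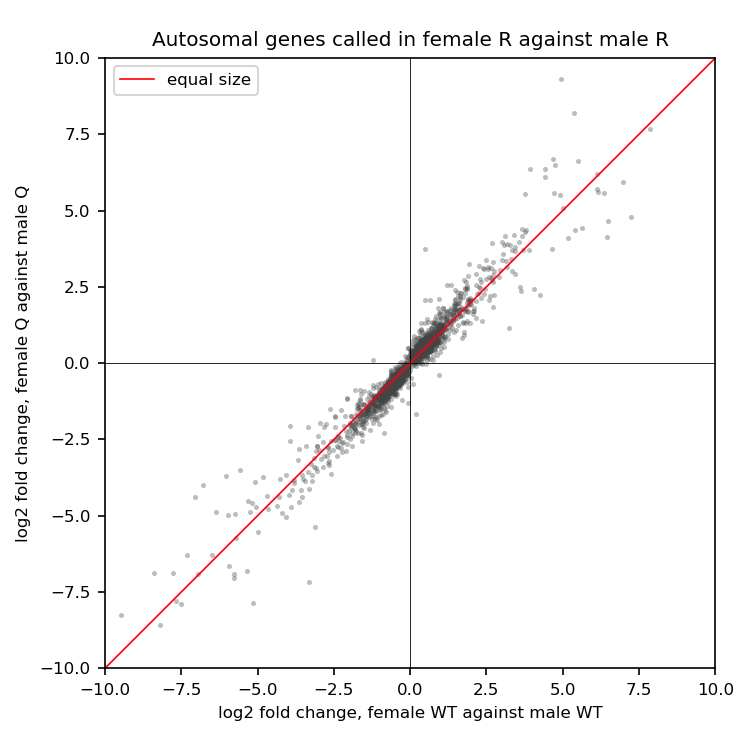
Log2 fold change of female Q against male Q (vertical) and of female WT against male WT (horizontal) for the 2368 autosomal genes called in female R against male R, one point per gene, with the red line at equal size. Nearly all points lie in the lower left and the upper right, and 70% are farther from 0 in Q than in WT.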

How the data were processed

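Polyadenylated RNA of mouse kidneys was sequenced by the submitters. The values used were the raw counts of fragments per gene that the authors deposited, made per the file headers with featureCounts 2.0.1 on the Ensembl annotation of GRCm39. The header gives the paired-end option and no strand option, so reads from a gene and an overlapping antisense gene cannot be told apart. By default the tool skips reads that map to several places or overlap several genes. Trim Galore 0.6.7, SAMtools 1.6 and DESeq2 1.38.3 are named in the submitters' processing notes; the aligner is not given in the sources used here.

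Gene chromosomes came from GENCODE mouse release M21 on GRCm38 by gene identifier, which matched 52125 of 56748 genes; unmatched genes held 0.658% of the counts and were not described. The analysis used edgeR 4.0.16 in R 4.3.3: filterByExpr on the 6 groups left 17573 genes, libraries were scaled by TMM, and one model with 6 group means was fitted to all 28 libraries (22 residual degrees of freedom) with the robust quasi-likelihood test. Sharing one spread estimate was chosen because each group has few libraries. P-values were adjusted by Benjamini-Hochberg over all tested genes, and genes under 0.05 were called. Standard errors (SE) were taken from the F statistic (size of the log2 fold change over the root of F), and the 95% intervals built on them are approximate. Levels are TMM-scaled CPM. A group at 0 was set at a floor of 3 counts over the group; floors cover counting error only. Steps were tested on simulated counts, drawn independently with no library standing apart. The test of female Q against male Q recovered 50% of 50 genes changed 1.5-fold and 76% of 50 changed 2-fold. It recovered 100% at 4-fold and at 8-fold, with 7 false calls. Tests of a difference between genotypes were not simulated.

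The genes described were the 15 largest called rises and falls that averaged 1 CPM or more and kept their sign in every fit that left out 1 Q library or both that stand apart, up to 6 members of smallest p in each of 20 of 35 gene lists, all tested aquaporins, and the 4 that moved most without those libraries; Gm, Rik and pseudogene names were not used. Some genes that this choice takes in are not reported here. The members and lists were chosen with earlier results of these data known. Alternatives were DESeq2 1.42.0 (size factors, Wald test), no filter, the Q libraries alone, a replicate block, limma 3.58.1 voom with quality weights, adjustment over autosomal genes only, and leaving out libraries. Promoter sequences are RefSeq's.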

Additional observations from a re-analysis of the deposited data

Results flagged for a closer look

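Each group of 5 Q libraries was screened for a single library far from the other 4, over the genes chosen by rule, less those not reported. Of 280 groups 39 held one. The cutoff marks about 1 in 20 groups of independent normal values. These genes share the same libraries, and some were chosen because they moved most without the pair that stands apart, so that rate is no test here. Male Q replicate 4 accounted for 20 of them.

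That library lay above the other male Q libraries in Ggt1 (2468 CPM), Gss (690), Hadh (854), Nat8 (527), Pth1r (1273), Rhcg (164), Slc22a12 (2169) and Srm (51). It lay below them in Acsl1 (113 CPM), Atp11a (826), Atp6v0d2 (20.5), Car2 (223), Cyp4b1 (2916), Egf (556), Kit (5.72), Mas1 (1.68), Slc12a1 (468), Slc5a1 (45.6), Ugt8a (47.4) and Wt1 (3.86).

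Female Q replicate 5, the other library that stands apart, was low in Podxl (139 CPM), Synpo (51.6) and Trpv5 (8.67). Female Q replicate 2 was high in Calb1 (818 CPM), Retn (5.56), Slco4a1 (24.2) and Srd5a1 (14.5) and low in Egf (1258). Female Q replicate 4 was high in Igf2 (10.9 CPM) and Tmprss6 (14.3).

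Male Q replicate 1 was high in Cyp4a12b (20.8 CPM) and Cyp4a14 (164) and low in Hsd3b2 (135) and Srd5a1 (22.2). Male Q replicate 5 was high in Bhmt (6.18 CPM), Slc22a29 (4.23) and Ugt1a1 (0.108) and low in Ace (298). Male Q replicate 3 was high in Slc22a28 (266 CPM). No direction of a called gene named here changed when such a library was left out. For the largest rises and falls that was a condition of the choice.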

How the results depend on the processing

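The count of 3897 called autosomal genes was 3876 with DESeq2 size factors, 4213 by DESeq2's Wald test, 3020 without the filter on low counts, 3911 with p adjusted over autosomal genes only, 5041 by voom with quality weights and 4126 without male Q replicate 4 and female Q replicate 5. With the 10 Q libraries alone in the fit, which estimates the spread from them only, it fell to 2155 (1018 higher, 1137 lower). Why it fell was not tested. Leaving out 1 Q library gave 3312 to 4093. The 1571 genes called in all 3 genotypes became 2553 with voom and quality weights and 2241 without male Q replicate 4 and female Q replicate 5. The cause was not tested. Both tests of a difference between genotypes called 0 genes in every setting run. Of 121 called genes among the 142 chosen by rule, 98 kept their call in all 18 settings and none changed sign. For the largest rises and falls and those that moved most, a kept sign without libraries was a condition of the choice. List members were chosen by smallest p in these same data, so these counts are no separate support. Signs changed for uncalled genes near 0: Agtr1a (0.15) was 0.00 without male Q replicate 4 (0.00 to 0.25 without 1 library); Aqp1 was -0.03 without both doubtful libraries, -0.02 with DESeq2 size factors and in its Wald test, 0.00 with Q libraries only, -0.01 with voom and -0.06 to 0.04 without 1 library; Aqp2 was 0.07 without both and -0.36 to 0.05 without 1; Aqp3 was 0.01 without the filter and -0.05 to 0.03 without 1; Aqp5 was -0.18 to 0.38 without 1. A replicate block gave 3708 called genes (1786 higher, 1922 lower). Deviations of same-numbered female and male libraries from their group means correlated at 0.177, -0.159, 0.0957, -0.291 and -0.182, best with the own number in 1 of 5. The labels name no pairing, and 5 such values cannot decide whether there was one. Depth limits genes near 1 CPM or below, and close copies are uncertain because reads mapping to several places were not counted.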
